A study of Mus musculus with 9 samples.

Results

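Neutrophil granule proteins are described here through the 10 genes that encode the best known of them, grouped by the granule that holds the protein. The primary granule genes were Mpo, Elane, Prtn3 and Ctsg, the secondary granule genes were Ltf, Camp, Ngp and Lcn2, and the tertiary or gelatinase granule genes were Mmp8 and Mmp9. They were taken by name from the 24341 genes of the deposited table, and all 10 had a row. The livers came from wild-type (WT) C57BL/6 mice, taken 48 hours after the agonist CD40 antibody FGK45 (anti-CD40; mice 2, 5 and 9) or, in the 6 controls, after what the labels give as PBS (mice 3, 4, 7, 8, 11 and 12). The labels give neither the age nor the sex of the mice. Each mouse gave 1 library of bulk liver RNA, so that a higher value may come from more cells of a type or from more RNA per cell, which cannot be told apart.

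Neutrophils make their granules in waves while they mature in the bone marrow. Primary (azurophil) granules come first, at the promyelocyte stage, and hold myeloperoxidase and the serine proteases. Secondary (specific) granules follow in myelocytes and hold lactoferrin and antimicrobial peptides, and tertiary (gelatinase) granules come last. A neutrophil in the blood still carries the proteins but has largely stopped transcribing the primary granule genes. In the developing neutrophil, PU.1 and C/EBP family factors, among them C/EBP-epsilon for the secondary granules, drive these genes. Lcn2 stands apart because hepatocytes also make it in the acute phase response.

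After anti-CD40, every secondary and tertiary granule gene and 2 of the 4 primary granule genes were higher in the liver. Levels are given as FPKM, a count of fragments divided by transcript length and by library size, and the table shows no value below 0.01, its floor. Changes are the difference in mean log2(FPKM + 0.1) between the groups, tested with limma in 13807 genes whose FPKM averaged 0.1 or more. Of the 10 members, 8 were in that fit, and all 8 of these were higher at an adjusted p under 0.05, where 45.1% of all genes tested were called in either direction, 23.5% higher and 21.7% lower. Mpo and Elane lay under the filter. For 4 of the 8 (Ctsg, Ltf, Ngp and Mmp8) the control mean was under 0.1 FPKM, so that they passed the filter through the treated mice only and had to differ; the count of 8 is a description. In the same 8 members every anti-CD40 mouse was above every control mouse, as in 22.7% of all genes tested. The median change was 1.1 over the 4 primary genes, 4.53 over the 4 secondary genes and 4.68 over the 2 tertiary genes. Over all genes tested it was 0.0056, and the classes were not tested against each other. The 0.1 added before the log (the pseudocount) holds down the change of low genes. These include Mpo, Elane and Ctsg (means of 0.139, 0.0916 and 0.277 FPKM after anti-CD40) and the secondary gene Ltf (0.295 FPKM). Its part in the gap between the class medians was not tested. The libraries were made from the 3′ end of the RNA, so dividing by transcript length puts different genes on unequal scales, and no order of levels among genes is given.

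**Figure D1:**
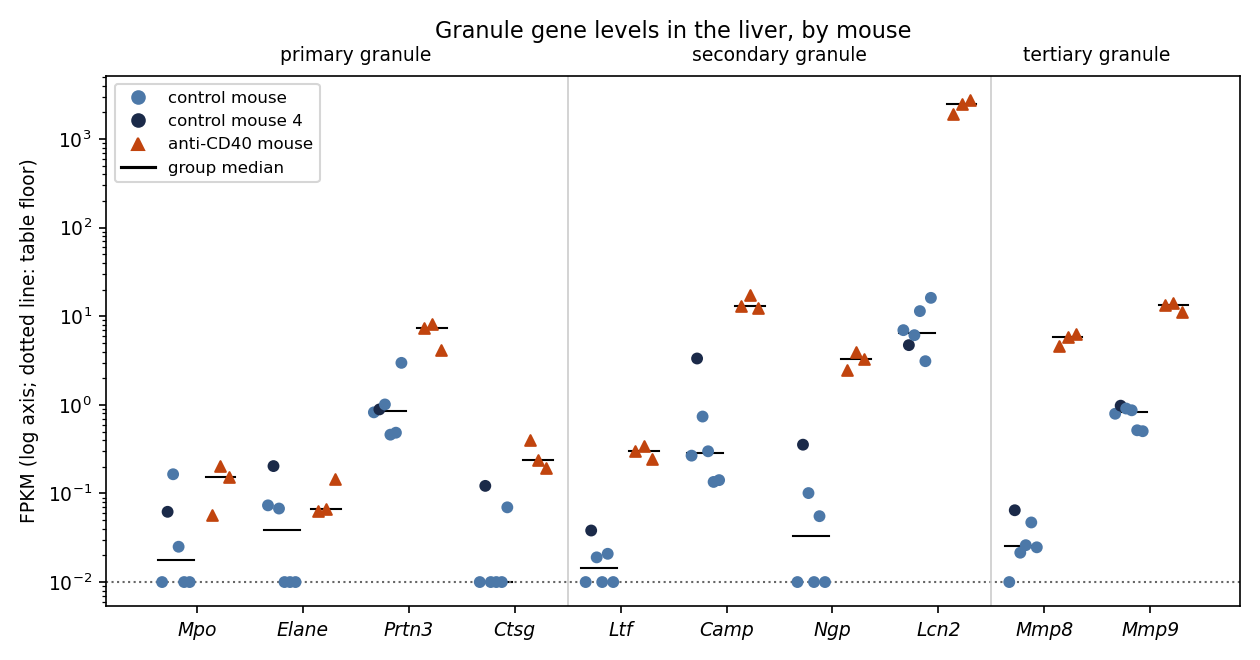
FPKM of the 10 granule genes in each mouse, on a log axis, by granule class. Circles are the 6 control mice (mouse 4 in the dark colour), triangles the 3 anti-CD40 mice, black lines the group medians, and the dotted line the floor of 0.01. The groups overlap for Mpo and Elane and are apart for the other 8 genes.

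The promoters of members that the results turn on are shown first, since factors that drive the granule genes are described further on and their known patterns can be looked for there. RefSeq held a promoter, 250 bases before to 50 bases after the start site, for 9 of the 10 members; there was no entry for Mmp9. Capitals mark matches, on either strand, to 2 patterns: TTNNGNAA for C/EBP factors and GAGGAA for PU.1, where N is any base. Prtn3 and Elane are shown as genes of 1 cluster with unequal reads, Ltf, Ngp and Lcn2 as secondary genes and Mmp8 as the tertiary gene with an entry. Camp, the other secondary gene, has no match to either pattern and is not shown. Mpo and Ctsg, with matches to the PU.1 pattern only, are not shown either.
Prtn3: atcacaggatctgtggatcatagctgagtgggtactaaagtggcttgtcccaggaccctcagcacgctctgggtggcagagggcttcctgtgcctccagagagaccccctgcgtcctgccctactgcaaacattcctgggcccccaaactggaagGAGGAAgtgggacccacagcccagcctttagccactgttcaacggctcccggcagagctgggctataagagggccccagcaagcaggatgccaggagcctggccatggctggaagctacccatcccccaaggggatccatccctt
Elane: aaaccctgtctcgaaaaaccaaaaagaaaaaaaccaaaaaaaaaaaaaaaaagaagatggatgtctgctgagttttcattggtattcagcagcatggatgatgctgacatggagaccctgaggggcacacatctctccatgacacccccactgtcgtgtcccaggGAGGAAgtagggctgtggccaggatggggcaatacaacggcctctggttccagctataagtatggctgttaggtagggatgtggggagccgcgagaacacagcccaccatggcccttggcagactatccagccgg
Ltf: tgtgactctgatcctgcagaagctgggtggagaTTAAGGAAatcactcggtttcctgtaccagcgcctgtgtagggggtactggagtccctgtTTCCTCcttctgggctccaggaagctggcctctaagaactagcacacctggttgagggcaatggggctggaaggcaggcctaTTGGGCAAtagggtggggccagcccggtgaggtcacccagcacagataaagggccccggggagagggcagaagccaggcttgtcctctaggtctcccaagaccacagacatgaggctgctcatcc
Ngp: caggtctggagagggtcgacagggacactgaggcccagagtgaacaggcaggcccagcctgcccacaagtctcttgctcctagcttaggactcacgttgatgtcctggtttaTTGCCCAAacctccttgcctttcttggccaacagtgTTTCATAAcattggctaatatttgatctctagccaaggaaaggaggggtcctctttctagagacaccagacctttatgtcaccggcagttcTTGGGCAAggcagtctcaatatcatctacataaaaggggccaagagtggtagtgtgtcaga
Lcn2: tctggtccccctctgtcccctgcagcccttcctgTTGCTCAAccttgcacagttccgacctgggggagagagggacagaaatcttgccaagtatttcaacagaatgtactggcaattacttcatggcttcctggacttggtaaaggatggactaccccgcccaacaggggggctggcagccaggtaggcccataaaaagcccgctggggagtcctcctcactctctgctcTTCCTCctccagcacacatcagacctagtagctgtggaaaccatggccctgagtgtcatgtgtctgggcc
Mmp8: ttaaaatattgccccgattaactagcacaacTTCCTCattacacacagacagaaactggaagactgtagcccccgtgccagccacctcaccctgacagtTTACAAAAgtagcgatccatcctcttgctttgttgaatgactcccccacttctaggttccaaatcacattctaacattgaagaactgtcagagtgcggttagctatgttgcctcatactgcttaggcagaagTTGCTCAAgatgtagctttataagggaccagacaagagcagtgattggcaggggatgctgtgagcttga

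These 300-base windows lie, in GRCm38.p6, at chr10:79879417-79879716 for Prtn3, chr10:79886062-79886361 for Elane, chr9:111019042-111019341 for Ltf, chr9:110419558-110419857 for Ngp and chr9:7558179-7558478 for Mmp8, all on the forward strand, and at chr2:32387690-32387989 on the reverse strand for Lcn2. The C/EBP pattern was in 4 of the 9 member promoters, those of Ltf (2 matches), Ngp (3), Lcn2 (1) and Mmp8 (2), against 40.7% of all 32851 promoters of this length. The PU.1 pattern was in 7 of the 9, including all 4 primary genes, against 28.3% of all promoters, and was not in those of Camp and Ngp. A match describes the letters only.

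Of the 4 primary granule genes, Prtn3 and Ctsg were higher and Mpo and Elane did not pass. Prtn3, which encodes proteinase 3, a serine protease, was at 7.44, 8.23 and 4.18 FPKM in anti-CD40 mice 2, 5 and 9. In control mice 3, 4, 7, 8, 11 and 12 it was at 0.823, 0.888, 1.01, 0.461, 0.485 and 2.98 FPKM. The groups did not overlap, and control mouse 12 was nearest to the treated mice. The means were 6.62 ± 2.15 (SD, n = 3) and 1.11 ± 0.943 (SD, n = 6), 5.98-fold apart, and the log2 change was 2.69 ± 0.48 (SE; limma adjusted p = 0.00114).

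Ctsg encodes cathepsin G, another serine protease of the primary granule. It was at 0.397, 0.241 and 0.194 FPKM in anti-CD40 mice 2, 5 and 9. Among the controls, mouse 4 had 0.122 FPKM, mouse 12 had 0.0697 FPKM, and the other 4 were at the floor. No control mouse reached the lowest treated mouse, and the log2 change was 1.47 ± 0.31 (SE; limma adjusted p = 0.00308). This value rests on few reads, as given further on.

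Mpo, the peroxidase that makes hypochlorous acid and the usual histological marker of these cells, was at 0.0578, 0.205 and 0.154 FPKM in anti-CD40 mice 2, 5 and 9. The control mice had 0.165 (mouse 7), 0.0621 (mouse 4) and 0.0250 FPKM (mouse 8), and the other 3 were at the floor. The groups overlapped: control mouse 7 lay above 2 of the 3 treated mice. The log2 difference of 0.73 did not pass the exact permutation test (2-sided p = 0.119 over all 84 splits of the mice).

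Elane, neutrophil elastase, was at 0.0632, 0.0672 and 0.144 FPKM in anti-CD40 mice 2, 5 and 9. Control mouse 4 had 0.204 FPKM, the highest value of all, mice 3 and 7 had 0.0734 and 0.0676 FPKM, and the other 3 were at the floor. The groups overlapped throughout, with a log2 difference of 0.32 (exact permutation p = 0.452).

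The 4 secondary granule genes were all higher after anti-CD40. Camp, the cathelicidin antimicrobial peptide, was at 13.003, 17.4 and 12.5 FPKM in anti-CD40 mice 2, 5 and 9. In control mice 3, 4, 7, 8, 11 and 12 it was at 0.267, 3.34, 0.738, 0.299, 0.135 and 0.141 FPKM. The groups did not overlap, but control mouse 4 stood well above the other controls. The log2 change was 4.73 ± 0.74 (SE; limma adjusted p = 4.85e-04), and 5.26 without mouse 4.

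Ngp, neutrophilic granule protein, a cathelicidin relative, was at 2.46, 3.97 and 3.29 FPKM in anti-CD40 mice 2, 5 and 9. Control mouse 4 had 0.355 FPKM, mouse 7 had 0.101 FPKM, mouse 11 had 0.0554 FPKM, and the other 3 were at the floor. All treated mice were above all controls, with the same control mouse on top as for Camp. The log2 change was 4.33 ± 0.44 (SE; limma adjusted p = 2.74e-05).

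Ltf encodes lactoferrin, the iron-binding protein that defines the secondary granule. It was at 0.302, 0.340 and 0.243 FPKM in anti-CD40 mice 2, 5 and 9. The controls had 0.0382 (mouse 4), 0.0208 (mouse 11) and 0.0190 FPKM (mouse 7), with the other 3 at the floor. The groups were apart by more than the range within either. The log2 change was 1.74 ± 0.21 (SE; limma adjusted p = 7.75e-05), a value that the pseudocount of 0.1 holds down because every control mouse lay below it.

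Lcn2, lipocalin 2, binds bacterial siderophores. It was at 1916, 2496 and 2768 FPKM in anti-CD40 mice 2, 5 and 9. In control mice 3, 4, 7, 8, 11 and 12 it was at 6.97, 4.72, 6.12, 11.4, 3.11 and 16.1 FPKM. Here control mouse 4 was among the lower controls. The means were 2393 ± 435 (SD, n = 3) and 8.08 ± 4.84 (SD, n = 6), 296-fold apart, with a log2 change of 8.38 ± 0.43 (SE; limma adjusted p = 5.50e-07), the fifth largest increase of the 13807 genes tested.

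Both tertiary granule genes, which encode secreted metalloproteinases, were higher. Mmp8, neutrophil collagenase, was at 4.57, 5.76 and 6.23 FPKM in anti-CD40 mice 2, 5 and 9. In control mice 3, 4, 7, 8, 11 and 12 it was at the floor, 0.0646, 0.0214, 0.0261, 0.0471 and 0.0247 FPKM. Every control lay near the floor and every treated mouse far above it, with a log2 change of 5.41 ± 0.19 (SE; limma adjusted p = 6.79e-08). Mmp9, gelatinase B, which cleaves denatured collagen and type IV collagen, was at 13.5, 14.1 and 11.0 FPKM in anti-CD40 mice 2, 5 and 9. In control mice 3, 4, 7, 8, 11 and 12 it was at 0.793, 0.978, 0.909, 0.868, 0.516 and 0.504 FPKM. Every control had Mmp9, unlike Mmp8, and the log2 change was 3.94 ± 0.22 (SE; limma adjusted p = 7.69e-07). For each of the 8 members in the fit the exact permutation test gave p = 0.0238, the smallest that 3 mice against 6 allow.

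The steps between low FPKM values show how many reads lie behind them. For 89.7% of 5240 low genes the values of all mice were whole multiples of 1 read to within 0.06 reads, and the same held for all members but Lcn2; the reads are the smallest whole numbers that match. In the 3 anti-CD40 mice together and in the 6 controls together there were 20 and 12 reads of Mpo. Elane had 4 and 5 reads, and Ctsg had 14 and 3. Prtn3 had 319 and 96 reads, most of the reads of the primary class in both groups. Ltf had 47 and 4 reads, Camp had 350 and 39, and Ngp had 192 and 10. Mmp8 had 770 and 8 reads, and Mmp9 had 2400 and 261.

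With the worth of a read in each mouse taken into account, these reads give a second measure of the change that needs no pseudocount. Its 95% intervals cover counting error only, not the spread between mice. The ratio was 176 (interval 89.1 to 410) for Mmp8, 35.2 (18.7 to 74.6) for Ngp and 21.5 (7.88 to 82.3) for Ltf. It was 16.9 (14.8 to 19.2) for Mmp9 and 16.5 (11.8 to 23.5) for Camp. In the primary class it was 8.56 (2.39 to 46.4) for Ctsg, 6.09 (4.84 to 7.74) for Prtn3, 3.06 (1.42 to 6.86) for Mpo and 1.47 (0.291 to 6.81) for Elane. On this scale the interval of Ltf overlapped those of Camp and Ngp, while its log2(FPKM + 0.1) change was the smallest of its class. For Elane the interval spans both directions and holds the ratio of Prtn3, so that no change was detectable at this depth; without control mouse 4 the ratio was 3.01 (0.431 to 33.2). The Mpo ratio moved to 7.51 (2.51 to 30.2) without control mouse 7, which held 8 of the 12 control reads, and to 2.29 (0.888 to 5.79), an interval that spans both directions, without anti-CD40 mouse 5, which held 10 of the 20 treated reads.

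**Figure D2:**
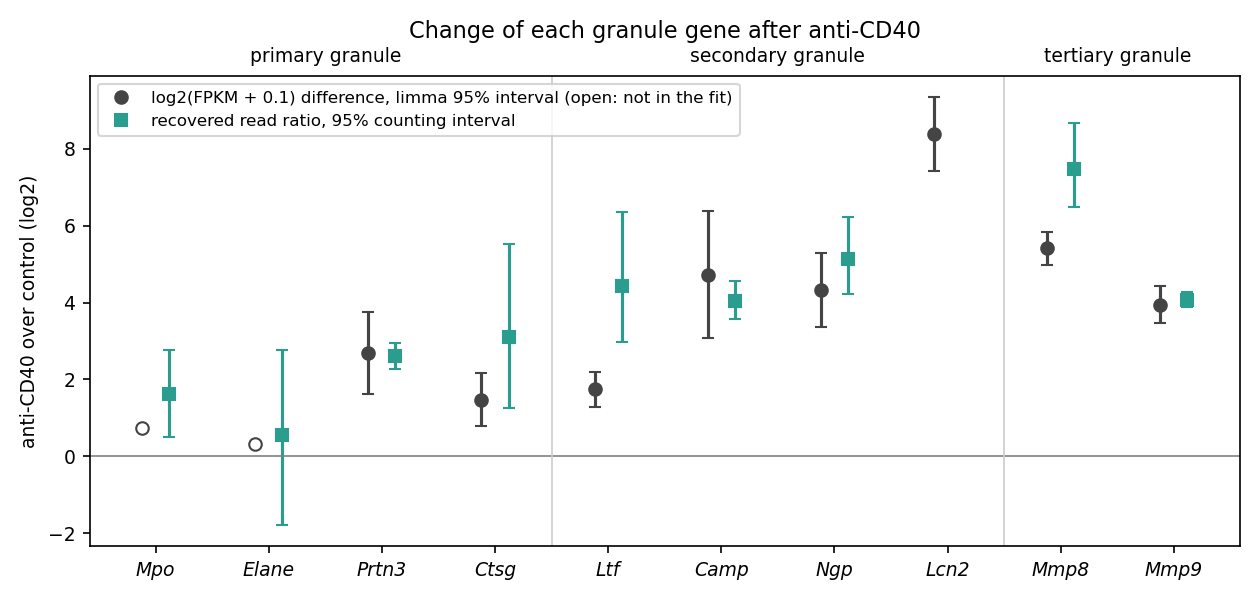
Change of each granule gene after anti-CD40 on the log2 scale. Dark circles are the differences in mean log2(FPKM + 0.1) with limma 95% intervals (open circles: Mpo and Elane, not in the fit), and green squares the ratios of recovered reads with 95% counting intervals; Lcn2 has no recovered reads. Mpo, Elane, Ctsg, Ltf, Ngp, Mmp8 and Mmp9 lie higher by reads than by log2(FPKM + 0.1), and Camp and Prtn3 lie lower.

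Control mouse 4 held a large part of the control reads. It had 27 of 39 Camp reads, 7 of 10 Ngp reads, 2 of 4 Ltf reads, 3 of 8 Mmp8 reads, 3 of 5 Elane reads and 2 of 3 Ctsg reads, but 14 of 96 Prtn3 reads and 60 of 261 Mmp9 reads. Without it, the read ratio was 43.8 (24.8 to 85.6) for Camp, 96.2 (32.4 to 470) for Ngp, 35.3 (9.25 to 300.1) for Ltf and 21.04 (3.20 to 890) for Ctsg, and all 8 members in the fit were still called. The same mouse had the highest summed level of the 7 erythroid markers with a row, 50530 FPKM against at most 13470 in the other controls, and for the haemoglobin gene Hbb-bs 25903 FPKM. It also had the highest control values of S100a8 (99.2 FPKM) and S100a9 (50.3 FPKM). The part of blood in its granule reads was not tested. Prtn3 had its own outlying control: mouse 12 held 41 of the 96 reads, and the ratio was 8.96 (6.71 to 12.2) without it.

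**Figure D3:**
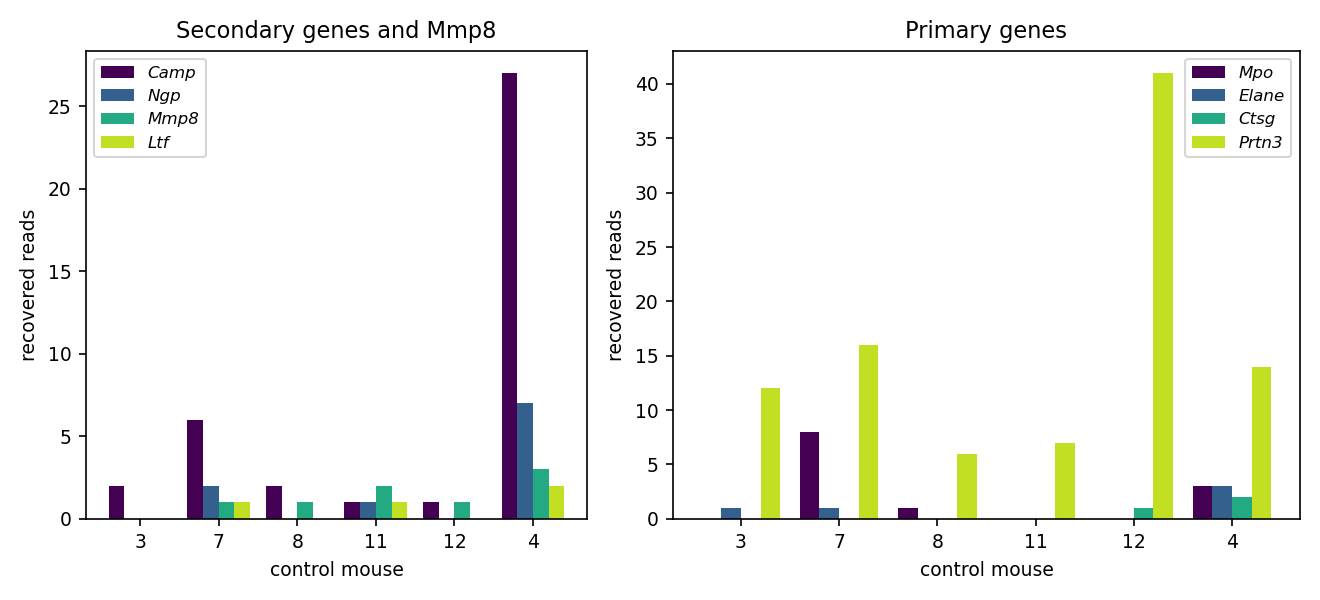
Recovered reads in each of the 6 control mice, for Camp, Ngp, Mmp8 and Ltf (left) and for the primary granule genes (right); bars start at 0, mouse 4 is drawn last, and the panels have different axes. Mouse 4 has 27 Camp reads against 1 to 6 in the other controls, while mouse 12 has 41 Prtn3 reads.

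Whether members of a class changed by different amounts was tested within each mouse, as the gap between a pair of genes in log2(FPKM + 0.1), for the 13 pairs within a class. At an adjusted p under 0.05, 0 of the 13 pairs passed (exact permutation test, Benjamini-Hochberg over 13), with 8 at an unadjusted p under 0.05 and 6 at the smallest p the design allows (0.0238, adjusted 0.0516). With 13 pairs, a pair alone at this smallest p cannot pass, and even 6 together did not, so the count of 0 does not show equal changes. The count that passed was 8 with a pseudocount of 1, 7 after quantile normalization and 10 without control mouse 12. Among these 6, none of which passed after adjustment, the difference in change, Mmp8 minus Mmp9, was 1.47: the log2 gap between them ran from -1.54 to -0.82 in the treated mice and from -3.05 to -2.07 in the controls. With a pseudocount of 1 that difference turned to -0.33. For Lcn2 the pairs with Ngp, Camp and Ltf were among the 6, with a difference in change, Ngp minus Lcn2, of -4.05 (the log2 gap of these 2 genes ran from -9.67 to -9.26 in the treated mice and from -7.21 to -3.41 in the controls). Camp and Ngp differed by 0.40 (exact permutation p = 0.429). In the primary class the difference in change, Elane minus Prtn3, was -2.36 (exact permutation p = 0.0476, adjusted 0.0774).

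The position of the genes in the deposited table (mm10) limits what can be said of 2 members. Elane and Prtn3 share 1 merged position with 47 other genes, chr10:79697305-80369637, so their table position does not tell them apart. In RefSeq they are separate genes, Prtn3 at chr10:79879667-79883174 and Elane at chr10:79886312-79888216, with 3137 bases between them. Of the 40 genes at that position that were tested, 9 were called higher and 8 lower, where the shares of all genes tested were 23.5% and 21.7%. The other members have a position to themselves. Camp (chr9:109847377-109849456), Ngp (chr9:110419808-110423012) and Ltf (chr9:111019292-111042766) lie on 1 chromosome, as does Mmp8 (chr9:7558429-7568486).

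Around the 8 members with a position of their own, 18 genes within 50 kb were tested, of which 5 were higher and 1 lower. Among all genes tested 23.5% were higher and 21.7% lower, and the neighbours are given as a description only. None of the 3 tested neighbours of Ngp (Klhl18, Ptpn23 and Scap) was called by limma (adjusted p = 0.205, 0.152 and 0.275; 0 of the 3 at an unadjusted p under 0.05). Of the 5 tested neighbours of Lcn2 (chr2:32384637-32387739), none was higher and Ptges2 was lower (log2 change -0.53, limma adjusted p = 0.00622). Near Ltf, 1 of 2 was higher: Ccrl2, a chemerin-binding receptor, with a log2 change of 2.33 (limma adjusted p = 3.95e-05). Near Mpo, Bzrap1 was higher by 1.26 (limma adjusted p = 0.00164). Near Camp, Cdc25a was higher by 0.96 (limma adjusted p = 0.00381), and near Mmp9 (chr2:164948219-164955849) Ncoa5 was higher by 0.48 (limma adjusted p = 0.0253). Near Ctsg (chr14:56099881-56102574) the basophil protease gene Mcpt8 was higher by 1.27 (limma adjusted p = 0.0464), a call that ended when any of 7 single mice was left out. Bzrap1 and Mcpt8 had control means of 0.0589 and 0.05775 FPKM, so they passed the filter through the treated mice only and had to differ.

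The genes whose pattern over the 9 mice came nearest to each member, by the root mean square difference in log2 values centred on the control mean, were mixed. Nearest to Lcn2 was Saa2, an acute phase gene (difference 0.78). For Mmp9 the nearest was Adam8, a neutrophil granule metalloproteinase (0.2515), with Cd40 (0.2543) and Cd63 (0.2567) almost level. Nearest to Mmp8 was Vcan (0.33), to Ngp Samsn1 (0.37) and to Camp Gzma (0.50). Nearest to Prtn3 was Pgf (0.49), to Ctsg Aldh18a1 (0.16) and to Ltf Birc2 (0.12). For Mpo it was Map10 (0.19) and for Elane Apold1 (0.16), neither of which was called by limma (adjusted p = 0.0768 and 0.522). A small difference is easier to reach for a gene that changed little.

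Other genes of the granules were mostly higher. Of 22 listed, 16 were tested, 15 of these were higher and 0 lower, with a median log2 change of 2.78. Among all genes tested, 23.5% were higher. The list holds Hp, also listed as a hepatocyte acute phase gene, and Lyz2, also listed as a monocyte and macrophage marker. Chil1, Chil3, Stfa2l1 and Prss57 had control means under 0.1 FPKM, so they passed the filter through the treated mice only and had to differ. Ctsc, the protease that activates the granule serine proteases, rose by 0.87 ± 0.18 (SE; limma adjusted p = 0.00264), from 46.1 ± 8.27 (SD, n = 6) to 84.6 ± 19 FPKM (SD, n = 3). Srgn, the proteoglycan that packs granule proteins, rose by 2.67 ± 0.26 (SE), and Lyz2, lysozyme, by 2.90 ± 0.34 (SE). Bpi, which encodes a primary granule protein that binds endotoxin, was at the floor in every mouse, as was Olfm4. Ms4a3, Fcnb, Cd177 and Mmp25 also lay under the filter.

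Markers of the cells that may carry these transcripts were read beside the members. Of the 15 mature neutrophil markers, Ly6g had no row and 13 were tested. Of these, 12 were higher and 0 lower, with a median log2 change of 3.78, where 23.5% of all genes tested were higher. Cxcr2 and Trem1 had control means of 0.0556 and 0.01265 FPKM, so they passed the filter through the treated mice only and had to differ. S100a8 and S100a9, which encode the main cytosolic proteins of neutrophils, rose by 7.00 ± 0.64 and 7.02 ± 0.65 (SE), and Csf3r, the G-CSF receptor, by 1.90 ± 0.21 (SE; limma adjusted p = 4.79e-05). The summed level of the list ran from 4629 to 5403 FPKM after anti-CD40 and from 176 to 342 FPKM in the controls. One call in it, that of Fpr1, a formyl peptide receptor, ended when anti-CD40 mouse 2 or 9 was left out (adjusted p up to 0.108).

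Among the markers of granulocyte progenitors, Ms4a3 and Fcnb were near the limit of detection, while Chil3 had a mean of 40.0 FPKM after anti-CD40. Ms4a3 had 8 reads in the treated and 2 in the control mice, a ratio of 7.33 (1.46 to 70.9), and Fcnb had 1 and 0. Prss57, a serine protease of the primary granule at the same merged position as Elane and Prtn3, rose by 1.58 ± 0.32 (SE; limma adjusted p = 0.00233). Of 10 such markers 8 were tested, 7 higher and 1 lower, where 23.5% of all genes tested were higher and 21.7% lower. The calls of Kit, Cd34 and Cebpe, however, ended in 5, 7 and 2 of the 9 fits that left out a mouse. Part of the list is shared with other dividing cells, such as Mki67 and Top2a. Prss57, Mki67, Gfi1 and Chil3 had control means under 0.1 FPKM (0.0961, 0.0626, 0.0947 and 0.0879). They passed the filter through the treated mice only and had to differ.

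Of 10 transcription factors listed for granulopoiesis, the making of granulocytes, all were tested. Of these, 6 were higher and 2 lower, with a median log2 change of 1.496, where 23.5% of all genes tested were higher and 21.7% lower. The list is not limited to activators of granule genes, as Gfi1 is a repressor. Spi1, which encodes PU.1, rose by 1.92 ± 0.25 (SE; limma adjusted p = 1.41e-04), from 3.18 ± 0.897 (SD, n = 6) to 11.8 ± 0.897 FPKM (SD, n = 3). Myb, a factor of immature blood cells, rose by 3.16 ± 0.20 (SE; limma adjusted p = 1.86e-06), on 201 reads in the treated and 7 in the control mice. Runx1 and Irf8 rose by 1.98 ± 0.28 and 2.23 ± 0.17 (SE). Cebpe, which drives secondary granule genes, fell by 0.995 ± 0.27 (SE; limma adjusted p = 0.0116), from 3.38 ± 1.004 (SD, n = 6) to 1.61 ± 0.454 FPKM (SD, n = 3), while the secondary granule genes rose; the groups overlapped, and the call ended without anti-CD40 mouse 2 or 9 (adjusted p up to 0.0604). Cebpa, which is also a hepatocyte factor, fell by 1.49 ± 0.23 (SE; limma adjusted p = 4.89e-04). Gfi1, a repressor needed for neutrophil maturation, rose by 1.99 ± 0.33 (SE; limma adjusted p = 7.13e-04), and Cebpb did not pass (0.53 ± 0.37, limma adjusted p = 0.270). The control means of Myb and Gfi1, 0.0230 and 0.0947 FPKM, were under the filter of 0.1. These genes passed it through the treated mice only and had to differ, so their calls are a description.

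Of the 7 growth factor and receptor genes, the 4 tested, all receptors, were higher, where 23.5% of all genes tested were higher. Besides Csf3r, Csf2ra, a subunit of the GM-CSF receptor, rose by 1.91 ± 0.37 (SE; limma adjusted p = 0.00193). The growth factor genes Csf3 and Csf2 had 1 read each in the treated mice and 0 in the controls, and Il17a was at the floor in every mouse.

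Of 16 inhibitors of the granule proteases, all tested, 5 were higher, 6 lower and 5 not called, with a median log2 change of -0.0021. The shares of all genes tested were 23.5% higher and 21.7% lower. Among the 5 inhibitors called higher, A2m had a control mean of 0.01096 FPKM, so it passed the filter through the treated mice only and had to differ. With Saa1, Saa2 and Saa3 left out and each mouse rescaled, as described at the end, 8 inhibitors were higher and 4 lower, with a median of 0.36. In that setting 40.5% of all genes tested were higher and 11.9% lower. Slpi, which inhibits elastase and cathepsin G, changed by 0.87 ± 0.43 (SE) and did not pass (limma adjusted p = 0.127). Serpinb1a, an inhibitor of the same proteases inside neutrophils, fell by 0.99 ± 0.31 (SE; limma adjusted p = 0.0229), a call that ended when any 1 anti-CD40 mouse was left out. Serpina1a and Serpina1b, alpha-1-antitrypsin genes made in hepatocytes, fell by 1.02 ± 0.17 and 1.57 ± 0.19 (SE); their reads may be split among near-identical copies. Timp2 fell by 0.81 ± 0.23 (SE; limma adjusted p = 0.0167), also lost without anti-CD40 mouse 2 or 9. Timp1, which binds Mmp9, is named after its values were seen: it rose by 5.35 ± 0.83 (SE; limma adjusted p = 4.72e-04), from 1.63 ± 1.96 (SD, n = 6) to 42.9 ± 7.82 FPKM (SD, n = 3), with the highest control value in mouse 4.

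**Figure D4:**
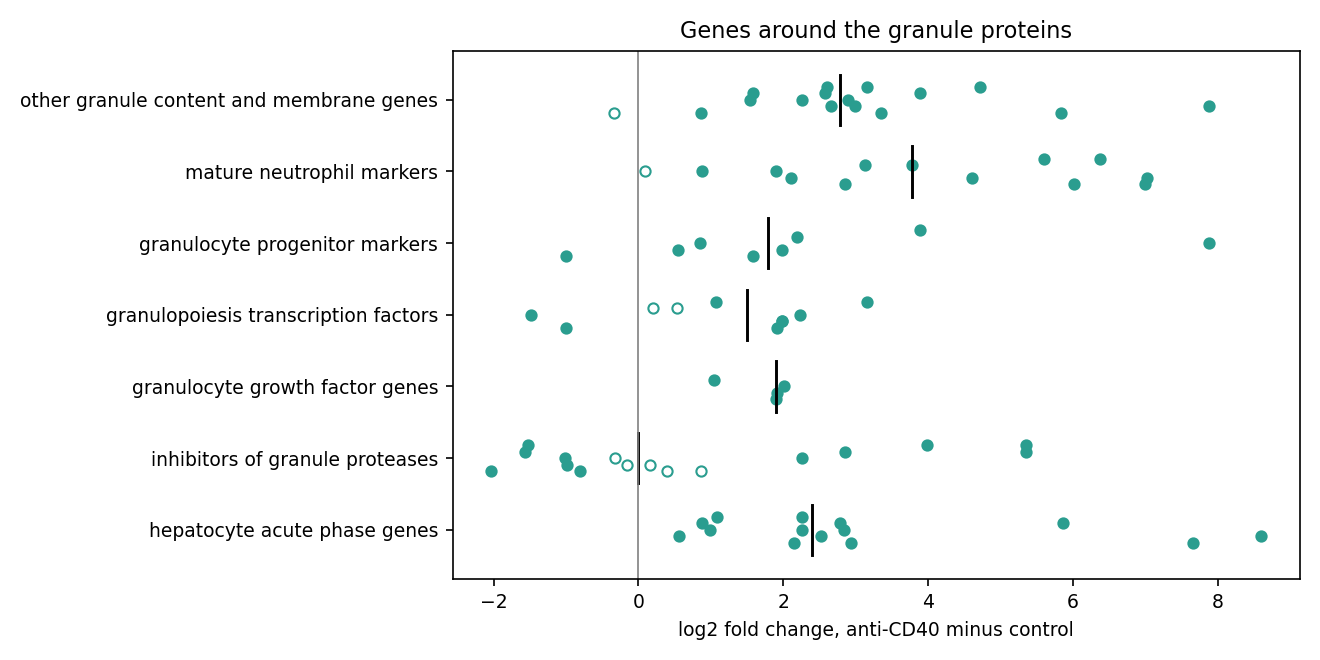
Log2 fold change of each tested gene in 7 lists around the granule proteins (anti-CD40 minus control). Filled points passed an adjusted p under 0.05, open points did not, and black lines are list medians: 3.78 for the mature neutrophil markers and -0.0021 for the protease inhibitors.

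Hepatocyte and other myeloid markers moved as well. Of all genes tested, 23.5% were higher and 21.7% lower. Of 8 hepatocyte markers, 0 were higher and 6 lower, with a median log2 change of -1.24: Alb, serum albumin, fell by 2.43 ± 0.18 (SE), Ttr, transthyretin, by 1.96 ± 0.22 (SE) and Cyp2e1, a cytochrome P450, by 2.49 ± 0.34 (SE). The lower call of Apoa1 ended in 2 fits that left out a mouse. It was also lost in the rescaling described at the end (limma adjusted p = 0.1055). All 14 hepatocyte acute phase genes were higher, among them Saa1 (7.66 ± 0.70, SE), Saa2 (8.60 ± 0.48, SE) and Orm2 (5.87 ± 0.38, SE), and the Lcn2 change was 8.38; the call of Itih4 ended in 4 fits that left out a mouse. Of 12 monocyte and macrophage markers 4 were higher and 5 lower: Ly6c2, a mark of inflammatory monocytes, rose by 5.61 ± 0.37 (SE) and Adgre1 fell by 1.49 ± 0.29 (SE). The lower call of Mrc1 ended in 6 fits that left out a mouse (limma adjusted p up to 0.124). In the rescaling the call of Mrc1 was lost too (limma adjusted p = 0.376), and 5 markers of the list were higher and 4 lower. All 6 Kupffer cell markers were lower, with Clec4f at 20.8 ± 3.17 FPKM (SD, n = 6) in the controls and 0.107 ± 0.105 FPKM (SD, n = 3) after anti-CD40. Of the 8 mast cell and basophil markers, which bear on Ctsg, 5 were tested and only Mcpt8 was called; their summed level was 1.22 to 1.59 FPKM after anti-CD40 and 0.573 to 2.68 FPKM in the controls. Of the 5 eosinophil markers 1 was tested and 0 called by limma, Prg2 at an adjusted p of 0.0619 (unadjusted 0.0295); 1 marker was called in 4 of 19 alternatives, among them Prg2 in the rescaling without the 3 Saa genes (log2 change 1.73, limma adjusted p = 0.0288). Siglecf, an eosinophil surface receptor under the filter, had 29 reads in the treated and 3 in the control mice, a ratio of 17.7 (5.49 to 90.9), with all 3 control reads in mouse 4. Ccr3, also under the filter, had 15 reads in the treated and 33 in the control mice, a ratio of 0.833 (0.42 to 1.58). Epx had 0 and 1 reads and Ear6 had 1 and 0, so the markers of this list did not move together. The summed pancreatic acinar markers reached 1207 FPKM in anti-CD40 mouse 5 and were 28.0 FPKM at the lowest in that group, against 70.8 to 190.5 FPKM in the controls. All 8 members in the fit were called without mouse 5. The parts of these cell types in the granule values were not tested.

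The acute phase genes Saa1, Saa2 and Saa3 made up 25.4% to 25.9% of all FPKM after anti-CD40, against 0.045% to 0.38% in the controls. With these 3 genes left out and each mouse rescaled, the median over all genes moved to 0.35 (log2), the calls in the whole table went from 3240 higher and 2990 lower to 5593 higher and 1649 lower, and the share called higher went from 23.5% to 40.5% and lower to 11.9%. Under that rescaling 8 members were still called higher. Cebpe, Serpinb1a and Timp2 were no longer called lower (limma adjusted p = 0.0627, 0.122 and 0.157), with changes of -0.65, -0.62 and -0.45, and Slpi, Timp3 and Pzp were called higher by 1.23, 0.52 and 0.77 (limma adjusted p = 0.0397, 0.0207 and 0.00213).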

How the data were processed

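Per the labels and the methods of the study, RNA from the livers of 9 mice was made into QuantSeq 3′ libraries and read on a NextSeq 500. Reads were mapped by the authors to mm10 (STAR), and Cufflinks and Cuffdiff gave the deposited FPKM values; both were run as BaseSpace applications, and the gene annotation is not given in the sources used here. Of 24341 genes, 15 with a failed estimate were left out. Read totals are not given, so absolute depth is unknown; relative depth, from the worth of 1 read, ran from 0.870 to 1.13.

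log2(FPKM + 0.1) was compared with limma 3.58.1 in R 4.3.3 (lmFit and trended eBayes on treatment alone, 2-sided, Benjamini-Hochberg over 13807 genes). Single members and pairs were compared with exact 2-sided permutation tests (scipy 1.17.1), and read ratios were given exact Clopper-Pearson intervals. The limma p-values set each difference against the spread between these mice, with variances moderated across genes. The permutation p-values place a difference among all splits of these mice. Scripts were tested on simulated data. Table starts were read as counted from 0, since adding 1 gave the RefSeq start for 59.7% of 17863 genes. Named genes were all members, the first 4 of each list, list genes whose call ended when a mouse was left out, the nearest pattern and neighbours within 50 kb, not all of which are described. Members and lists were chosen with earlier results of these data known. Alternatives were pseudocounts of 1 and 0.01, other filters, scalings and variance settings, and leaving out each mouse.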

Additional observations from a re-analysis of the deposited data

Results flagged for a closer look

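In 5 of the 10 members 1 control mouse stood apart from the other 5 in FPKM, by the ratio of its gap from the nearest mouse to the whole range (Dixon's 95% critical value for 6 mice). They were Camp in mouse 4 (3.34 FPKM, ratio 0.812), Ngp in mouse 4 (0.355 FPKM, 0.736), Elane in mouse 4 (0.204 FPKM, 0.673), Prtn3 in mouse 12 (2.98 FPKM, 0.782) and Mpo in mouse 7 (0.165 FPKM, 0.663). On the log2(FPKM + 0.1) scale none of the 10 passed. Chance flags about 1 in 20 groups, 0.5 of 10, and the values of Mpo and Elane rest on 8 and 3 reads.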

How the results depend on the processing

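Under all alternatives run for them, the 8 members in the fit kept their direction and their call, except that Ltf and Ctsg were not tested at a mean FPKM of at least 1, where 6 members were called. The value of the change moved with the pseudocount, for Mmp8 from 2.65 with 1 to 7.15 with 0.01. For Mpo the exact permutation p fell to 0.0476 with Saa1, Saa2 and Saa3 left out and rescaled (log2 difference 0.90). The genes called higher and lower in the whole table became 5593 and 1649 in that setting. Of the 13 pairs within a class, 8 passed with a pseudocount of 1 and 7 after quantile normalization, and from 0 to 10 when a mouse was left out. The 10 came without control mouse 12; with an anti-CD40 mouse left out the smallest p is 0.0714, so no pair could pass. The Mmp8 minus Mmp9 difference turned to -0.33 with a pseudocount of 1, and with 0.01 Prtn3 minus Ctsg turned to -0.18 and Camp minus Ngp to -0.81. Read ratios without single mice were chosen after the data were seen. Levels under 0.1 FPKM rest on few reads, and the 3 treated mice limit every test. No paired analysis was possible because the groups share no replicate numbers.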
